A study of Mus musculus with 12 samples.

Results

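Amacrine cells are the inhibitory interneurons of the inner retina, and they shape the signal that bipolar cells pass to ganglion cells. The 8 genes described here mark them at different levels of identity. Tfap2a, Tfap2b and Tfap2c encode AP-2 transcription factors, and the first pair are needed for amacrine and horizontal cell fate. Pax6 encodes a paired-box factor of retinal progenitors that stays on in amacrine, ganglion and horizontal cells, and Calb2 encodes the calcium-binding protein calretinin of many amacrine and some ganglion cells. Chat, which makes acetylcholine, and Slc18a3, which loads it into vesicles, mark the cholinergic starburst amacrine cells that underlie motion direction selectivity. Th, the rate-limiting enzyme of dopamine synthesis, marks the sparse dopaminergic amacrine cells that adapt the retina to light. The genes were chosen by name for these roles and not by a measured value, although earlier results of these data were known. Each of the 8 symbols matched 1 row of the 36131 genes in the count table.

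RNA-seq was performed on retinas of 12 C57BL/6J wildtype mice at P18, 1 library per animal, to ask how oxygen-induced retinopathy (OIR) and an antibody against the inflammasome adaptor ASC alter retinal transcription. RA-PBS animals 1 to 4 stayed in room air (RA) and received placebo (PBS). O2-PBS animals 5 to 8 were kept in 75% O2 from P7, went back to RA at P12 and received PBS, and O2-IC100 animals 9 to 12 had the same exposure and received the antibody IC100 at 10 µg/g. Injections were intraperitoneal on P12, P14 and P16 according to the labels, and all animals carried the same genotype, with no transgene. The paper counts P11 as the last day in O2, and it also describes intravitreal injection for parts of the study.

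Estimated counts summed to 14907143 to 24438082 per retina. In O2-IC100 animal 10, lens crystallin genes made up 59.0% of counts, compared with 1.25 to 4.50% in RA-PBS animals 2, 3 and 4 and at most 0.0158% in the other 8 retinas. RA-PBS animal 1 was at 0.00315%. The 10 rod genes listed as markers took 0.332% in animal 10 and 3.84 to 4.77% elsewhere, so 11 libraries carried the rod signal of retina at full strength and 1 did not. Y-linked genes, which mark male mice, summed to 223 to 324 CPM in animals 1, 2, 3, 8, 9, 11 and 12 and to 4.06 to 9.82 CPM in animals 4, 5, 6, 7 and 10. The groups therefore differed in sex, with 3 of 4 retinas male in RA-PBS, 1 of 4 in O2-PBS and 3 of the 3 others than animal 10 in O2-IC100. Each result below is given for all 12 animals and without animal 10. Levels are TMM-normalized CPM, which are counts scaled to library size, and are given as mean ± SD.

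The cholinergic pair occupies 1 locus. Slc18a3 lies inside the span of Chat on the same strand and shares 0 exon bases with it. The windows of 250 bases before the annotated starts are shown for both, as RefSeq gives them on GRCm38.p6, at chr14:32465910-32466159 and chr14:32464851-32465100 (minus strand). The windows of Th, at chr7:142899996-142900245 (minus strand), and of the upstream Pax6 start, at chr2:105668646-105668895 (plus strand), stand beside them because both hold the same palindrome. Capitals mark the AP-2 consensus GCCNNNGGC and the cAMP response element TGACGTCA, each of which reads alike on both strands.
Chat: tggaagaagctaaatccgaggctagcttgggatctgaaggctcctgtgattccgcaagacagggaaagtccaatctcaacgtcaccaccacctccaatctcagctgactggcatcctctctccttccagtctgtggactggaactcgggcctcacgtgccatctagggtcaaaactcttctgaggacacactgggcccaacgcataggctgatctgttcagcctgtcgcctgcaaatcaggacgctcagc
Slc18a3: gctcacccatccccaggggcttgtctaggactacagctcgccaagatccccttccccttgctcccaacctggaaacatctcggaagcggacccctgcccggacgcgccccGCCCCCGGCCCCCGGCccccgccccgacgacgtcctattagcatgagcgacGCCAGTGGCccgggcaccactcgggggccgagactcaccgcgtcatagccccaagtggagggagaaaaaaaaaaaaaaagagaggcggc
Th: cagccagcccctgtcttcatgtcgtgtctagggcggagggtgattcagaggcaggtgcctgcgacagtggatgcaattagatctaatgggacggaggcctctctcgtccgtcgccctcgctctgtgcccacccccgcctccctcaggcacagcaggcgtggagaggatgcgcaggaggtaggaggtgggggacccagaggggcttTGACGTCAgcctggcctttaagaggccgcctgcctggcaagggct
Pax6: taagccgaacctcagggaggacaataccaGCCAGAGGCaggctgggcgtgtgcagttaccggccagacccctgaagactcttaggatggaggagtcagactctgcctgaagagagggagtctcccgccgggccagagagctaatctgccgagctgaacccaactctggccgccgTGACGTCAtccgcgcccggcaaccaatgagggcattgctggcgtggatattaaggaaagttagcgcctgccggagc
The palindrome TGACGTCA began 45 bases before the start of Th and 76 bases before that of Pax6, and 1.55% of 32851 promoter windows in the table held it. The AP-2 consensus was in the Pax6 window once and in the Slc18a3 window at 3 places, the first pair of which overlap, against 13.7% of all windows. The Chat window held neither. RefSeq promoters matched 6 of the 8 genes, and the further windows, of Tfap2a, Tfap2b and the downstream Pax6 start, held neither motif. A match describes letters only and was not related to the counts.

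Per kilobase of exon, Calb2 stood highest in room air at 178 ± 37.0 CPM per kb (SD, n = 4). Tfap2b followed at 29.1 ± 5.18 and Pax6 at 27.9 ± 1.73, and the ranges of these 2 genes over animals overlapped. Tfap2a was at 8.37 ± 1.55, Tfap2c at 4.51 ± 0.352 and Slc18a3 at 4.14 ± 0.563. Chat was at 3.07 ± 0.556 and Th was lowest at 1.5 ± 0.681. From Tfap2c down to Th, each gene overlapped its neighbor in range. In O2-PBS the order was the same, and Chat no longer overlapped Slc18a3 or Th (2.38 ± 0.396 CPM per kb against 3.83 ± 0.334 and 0.894 ± 0.103, SD, n = 4). Without animal 10, O2-IC100 had Pax6 above Tfap2b, at 25.5 ± 0.520 against 23.5 ± 0.839 CPM per kb (SD, n = 3). Lengths are the union of all annotated exons, 11.694 kb for Pax6, so a gene with long rare isoforms reads low on this scale.

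Among the general factors, Pax6 gave the cleanest separation of the O2-PBS and RA-PBS groups. It was at 342, 318, 301 and 343 CPM in RA-PBS animals 1 to 4, at 257, 257, 271 and 259 in O2-PBS animals 5 to 8, and at 305, 267, 296 and 294 in O2-IC100 animals 9 to 12. Every O2-PBS retina lay below every RA-PBS retina. The O2-IC100 retinas other than animal 10 lay above all O2-PBS retinas, and animal 9 lay within the RA-PBS range. The means were 326 ± 20.2 CPM in RA-PBS and 261 ± 6.48 in O2-PBS (SD, n = 4 each), a log2 fold change of -0.32 (SE 0.11) with an adjusted p of 0.388 in edgeR's quasi-likelihood fit of 12 animals. In the edgeR fit without animal 10 the difference was -0.32 (SE 0.08) with an adjusted p of 0.0184, a fold change of 0.800. Pax6 thus fell in that fit by the adjusted p alone, a rule that 6.42% of all 16688 genes met in the lower direction, while its fold change stayed short of the 1.5-fold that the study's thresholds require. In RNA of a whole retina, fewer cells of a type and less RNA per cell cannot be told apart.

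Calb2, the calretinin gene, gave a larger and more scattered difference. RA-PBS retinas were at 365, 267, 242 and 365 CPM, O2-PBS retinas at 221, 197, 224 and 253, and O2-IC100 retinas at 293, 98.1, 277 and 276. O2-PBS animal 8 lay above RA-PBS animal 3, so the groups overlapped. The log2 fold change of O2-PBS over RA-PBS was -0.47 (SE 0.29, adjusted p = 0.954, edgeR) with 12 animals and -0.47 (SE 0.13, adjusted p = 0.0459, edgeR) without animal 10. That fall was lost when animal 1 was left out as well (-0.38, adjusted p = 0.116, edgeR).

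**Figure D1:**
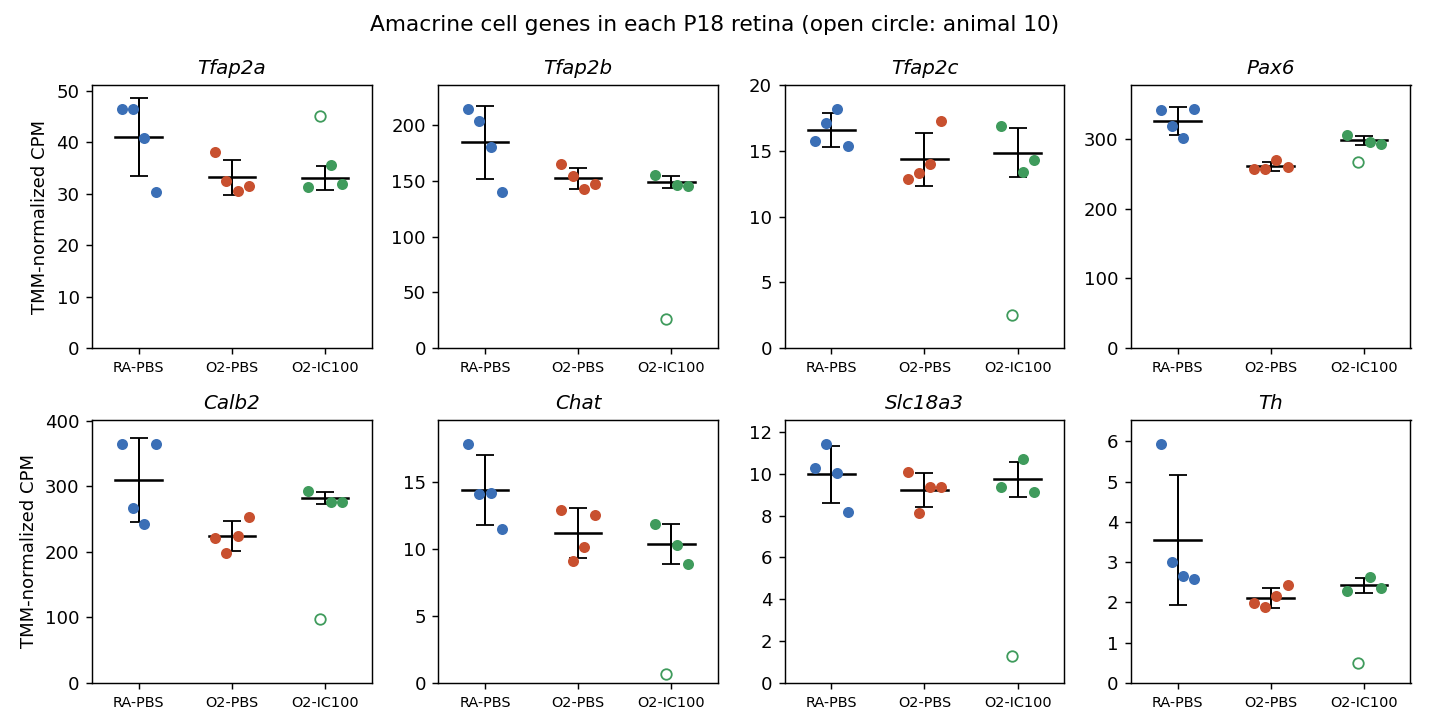
TMM-normalized CPM (y axis, from 0) of each gene in each retina, by group (x axis), with points for single animals, bars for the mean ± SD without animal 10, and an open circle for animal 10. Pax6 and Th of O2-PBS lie wholly below RA-PBS, animal 10 lies far below its group in 6 panels, and RA-PBS animal 1 stands above all others for Th at 5.95 CPM.

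The means of the 3 AP-2 genes differed between O2-PBS and RA-PBS by less than the range within RA-PBS. Tfap2b was at 215, 203, 180 and 140 CPM in RA-PBS, at 165, 154, 143 and 147 in O2-PBS and at 155, 26.5, 147 and 146 in O2-IC100. The 3 highest levels were all in RA-PBS, yet animal 4 of that group had the lowest level of any retina but animal 10. Tfap2a was at 46.5, 46.5, 40.9 and 30.3 CPM in RA-PBS, at 38.2, 32.4, 30.5 and 31.6 in O2-PBS and at 31.4, 45.1, 35.7 and 32.0 in O2-IC100. It too had its lowest value in RA-PBS animal 4. Tfap2c was at 15.8, 17.1, 18.2 and 15.4 CPM in RA-PBS, at 12.8, 13.3, 14 and 17.3 in O2-PBS and at 16.9, 2.52, 13.4 and 14.3 in O2-IC100. Its groups overlapped in every comparison.

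For O2-PBS over RA-PBS without animal 10, the log2 fold changes were -0.31 for Tfap2a (95% interval -0.55 to -0.060), -0.28 for Tfap2b (-0.50 to -0.057) and -0.21 for Tfap2c (-0.45 to 0.027). None passed in edgeR, with adjusted p of 0.166, 0.161 and 0.343. With the Y-linked level as a covariate, also without animal 10, the values were -0.18 for Tfap2a, -0.16 for Tfap2b and -0.11 for Tfap2c. The same fit gave -0.22 for Chat, -0.012 for Slc18a3 and -0.54 for Th. Pax6 and Calb2 were at -0.35 and -0.50 in it (adjusted p = 0.0365 and 0.0765, edgeR). Sex was uneven between the groups, and its part was not tested. RA-PBS animal 4 had the Y-linked level of a female (5.61 CPM). It was the lowest of its group for the 3 AP-2 genes, Chat, Slc18a3 and Th, and the highest for Pax6 and Calb2. The 1 male of O2-PBS, animal 8, lay within the range of that group's females for Tfap2a, Tfap2b, Pax6, Chat and Slc18a3. For Tfap2c, Calb2 and Th, animal 8 lay above all of them. The other AP-2 genes, Tfap2d and Tfap2e, were measured near 3 CPM and did not pass either. All 5 genes of the family had lower means in O2-PBS, and 0 of 5 passed in any comparison, by either rule and in either fit.

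Of the cholinergic genes, Chat was at 17.9, 14.2, 14.2 and 11.5 CPM in RA-PBS, at 13.0, 9.12, 10.2 and 12.6 in O2-PBS and at 11.9, 0.631, 10.3 and 8.92 in O2-IC100. RA-PBS animal 4 lay within the O2-PBS range. Slc18a3 was at 10.3, 11.4, 10.0 and 8.16 CPM in RA-PBS, at 10.1, 8.13, 9.39 and 9.37 in O2-PBS and at 9.37, 1.26, 10.7 and 9.12 in O2-IC100. Outside animal 10 its group means were 9.98 ± 1.36 (n = 4), 9.24 ± 0.807 (n = 4) and 9.73 ± 0.852 (SD, n = 3). The log2 fold change of O2-PBS over RA-PBS without animal 10 was -0.37 for Chat (95% interval -0.68 to -0.057, adjusted p = 0.190, edgeR) and -0.11 for Slc18a3 (95% interval -0.37 to 0.14, adjusted p = 0.662, edgeR). Estimated counts of Chat ran at 1.24 to 1.74 per Slc18a3 count in RA-PBS, 1.08 to 1.34 in O2-PBS and 0.962 to 1.27 in O2-IC100 without animal 10, so the groups overlapped. Chat counts were split among transcripts and were not whole in 10 of the 12 animals, whereas those of Slc18a3 were whole in all 12, within 0.01.

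Th, the dopaminergic marker, had the fewest reads and the largest difference. Its counts were 106, 62, 48 and 49 in RA-PBS, 33, 36, 38 and 44 in O2-PBS and 43, 4, 55 and 48 in O2-IC100. Scaled, these were 5.95, 2.99, 2.66 and 2.58 CPM, then 1.99, 1.88, 2.15 and 2.44, then 2.29, 0.505, 2.64 and 2.35. All 4 O2-PBS retinas lay below all 4 RA-PBS retinas, by as little as 2.44 against 2.58 CPM. The means were 3.55 ± 1.61 CPM in RA-PBS and 2.11 ± 0.244 in O2-PBS (SD, n = 4 each). The log2 fold change was -0.74 (SE 0.42, adjusted p = 0.878, edgeR) with 12 animals and -0.75 (SE 0.27, adjusted p = 0.121, edgeR) without animal 10, a fold change of 0.597 that did not pass. Animal 1 carried much of its size. Without animals 1 and 10 the value was -0.37 (adjusted p = 0.284, edgeR). A fit that was not planned left out animals 3 and 10, the pair with the most crystallin in their groups. In that fit the value was -0.86 and passed (adjusted p = 0.0753, edgeR).

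In the fit of 12 animals all 8 genes were fitted lower in O2-PBS. Their median log2 fold change was -0.31, and 51.2% of all tested genes were lower. Of the 8, 0 met the fold, p and adjusted p thresholds together in the fit of 12 animals, against 0.807% of all genes, and 0 without animal 10, against 6.27%. The adjusted p alone was met by 0 of 8 with 12 animals, against 0.813%, and by Pax6 and Calb2 without animal 10, against 12.4%. Groups did not overlap for Pax6 and Th, and this held for 6.63% of all genes in the lower direction with 12 animals.

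**Figure D2:**
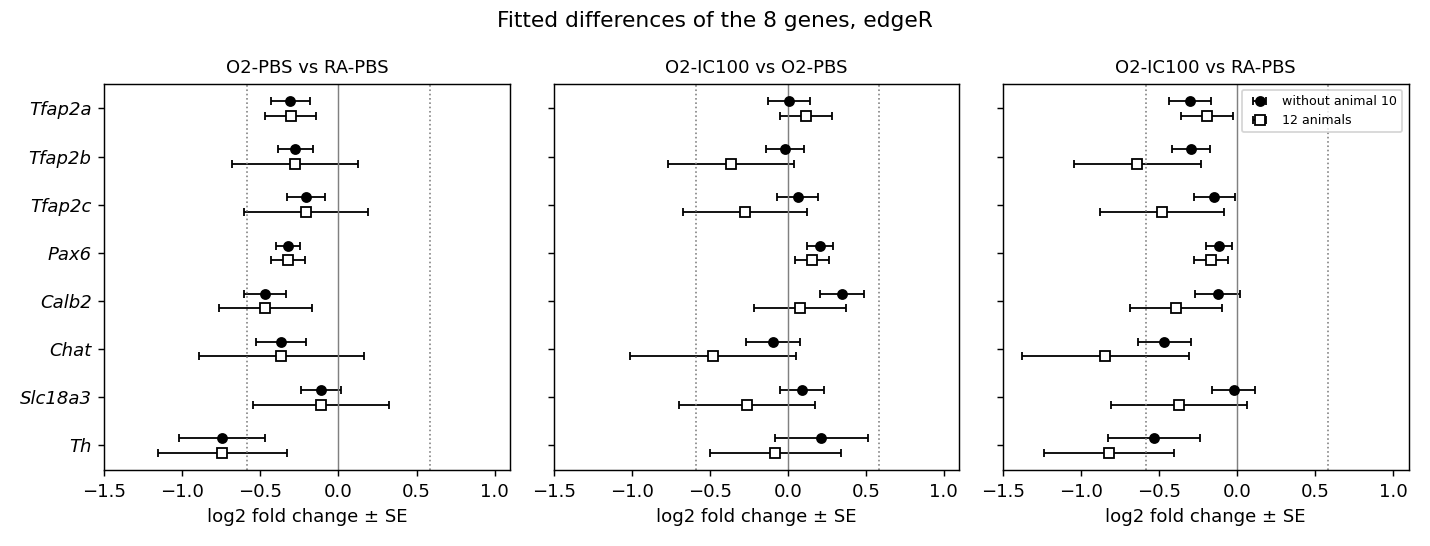
Fitted log2 fold change ± SE (x axis) of each gene (y axis) in the 3 comparisons, without animal 10 (filled circles) and with 12 animals (open squares), with dotted lines at 1.5-fold. Every point of O2-PBS over RA-PBS and of O2-IC100 over RA-PBS is below 0, and the errors of Tfap2b, Tfap2c, Chat and Slc18a3 shrink most without animal 10.

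IC100 against placebo after O2 was the second question. With 12 animals, 5 of the 8 genes were lower and 3 higher in O2-IC100 than in O2-PBS, and 0 passed either rule, as for 0 of all 16489 genes by edgeR (2784 had an unadjusted p under 0.05, and DESeq2 called 112). Without animal 10, 6 genes were higher and 2 lower, again with 0 passing, against 0.947% of all genes by the full thresholds and 1.31% by the adjusted p alone. Pax6 and Calb2 were the 2 genes of the 8 whose groups did not overlap. Pax6 was at 261 ± 6.48 CPM in O2-PBS (n = 4) and 298 ± 6.08 in O2-IC100 without animal 10 (SD, n = 3), a log2 fold change of 0.21 (SE 0.08, adjusted p = 0.212, edgeR). DESeq2 without animal 10 gave 0.19 with an adjusted p of 0.0677. Calb2 was at 224 ± 22.6 CPM (n = 4) and 282 ± 9.61 (SD, n = 3), a log2 fold change of 0.35 (SE 0.14, adjusted p = 0.229, edgeR). Separation of this kind was common with 3 retinas against 4, since 19.4% of all genes were higher in O2-IC100 without overlap. The comparison shares its O2-PBS retinas with that against RA-PBS.

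For the other 6 genes the differences between O2-IC100 and O2-PBS without animal 10 were small against their errors. Tfap2a differed by 0.0078 on the log2 scale (95% interval -0.26 to 0.28), Tfap2b by -0.016 (-0.25 to 0.22) and Tfap2c by 0.065 (-0.19 to 0.32). The cholinergic genes differed by -0.10 for Chat (-0.44 to 0.24) and 0.091 for Slc18a3 (-0.18 to 0.37). Th differed by 0.21 (-0.37 to 0.80), an interval that spans a wide range, at 33 to 55 counts per retina. A change of 1.5-fold was within the interval for Th alone among these 6.

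O2-IC100 over RA-PBS asks what differed from room air under treatment. All 8 genes had lower fitted levels in O2-IC100, in both fits, and 0 passed either rule in either, against 0% of all genes with 12 animals and, without animal 10, 1.56% by the full thresholds and 2.53% by the adjusted p alone. By edgeR with 12 animals 0 of 16489 genes passed, and DESeq2 called 279. Without animal 10 the largest differences were those of Th, at -0.53 (SE 0.29, adjusted p = 0.413, edgeR), and Chat, at -0.46 (SE 0.17, adjusted p = 0.212, edgeR). Slc18a3, of the same locus as Chat, was at -0.022 (95% interval -0.30 to 0.25).

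The dopaminergic, cholinergic and general markers were then set against each other within each retina, where library size cancels. Per 100 Chat counts there were 33.2, 21.2, 18.8 and 22.4 Th counts in RA-PBS animals 1 to 4, 15.4, 20.6, 21.2 and 19.4 in O2-PBS animals 5 to 8 and 19.3, 79.9, 25.6 and 26.4 in O2-IC100 animals 9 to 12. Animal 1 was the highest of all but animal 10, in which the ratio rests on 4 Th counts and 5 Chat counts. The log2 ratio of Th to Chat was -2.38 ± 0.208 in O2-PBS and -2.09 ± 0.353 in RA-PBS (SD, n = 4 each), a difference of -0.29 with p = 0.257 in a two-sided exact permutation test. Th to Tfap2b was -6.16 ± 0.224 and -5.76 ± 0.425, a difference of -0.39 (exact permutation p = 0.171). Chat to Tfap2b was -3.78 ± 0.228 and -3.67 ± 0.118, a difference of -0.10 (exact permutation p = 0.543).

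Over the 9 ratios tested, 0 passed, with the lowest adjusted p at 0.386 for 12 animals and 0.514 without animal 10 in exact permutation tests. The lowest p that 4 against 4 retinas can give is 0.0286, and 3 against 4 cannot go below 0.0571. After adjustment over the 9 tests, a single ratio at either of these values would stay above 0.1. The count of 0 thus says little about whether the markers differed. Without animal 10, O2-IC100 over O2-PBS differed by 0.31 for Th to Chat (exact permutation p = 0.229), by 0.23 for Th to Tfap2b (exact permutation p = 0.286) and by -0.077 for Chat to Tfap2b (exact permutation p = 0.629). Between O2-PBS and RA-PBS the groups overlapped for both Th ratios, and the tests did not separate them. With 4 retinas per group, whether Th differed more than Chat or Tfap2b cannot be decided.

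**Figure D3:**
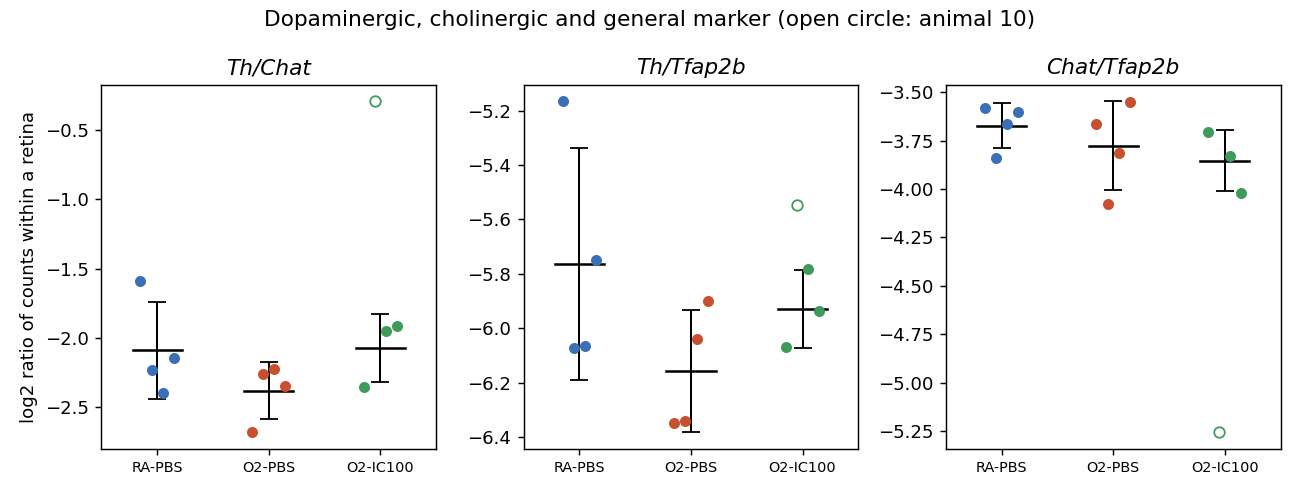
Log2 ratio of 2 genes' counts within each retina (y axis) by group (x axis), with bars for the mean ± SD without animal 10 and an open circle for animal 10. The 3 groups overlap for every ratio, RA-PBS animal 1 is highest among the 11 for both Th ratios, and animal 10 is highest for Th/Chat and lowest for Chat/Tfap2b.

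Animal 10 did not lower the 8 genes alike. Its CPM over the mean of animals 9, 11 and 12 was 1.37 for Tfap2a and 0.896 for Pax6, against 0.348 for Calb2, 0.208 for Th, 0.178 for Tfap2b, 0.170 for Tfap2c, 0.130 for Slc18a3 and 0.0609 for Chat. The TMM factor of this library was 0.324. Rod genes summed to 10246 CPM in animal 10 against 37109 to 40831 in the other O2-IC100 retinas. Bipolar markers summed to 1173 against 1371 to 1414 CPM. That sum does not speak for each bipolar marker. With 12 animals, 2 of 10 were fitted higher in O2-IC100 than in O2-PBS and 8 lower. Whether rods stand for all retinal RNA was not tested. Per summed rod gene count, which sets rod RNA as the base, Tfap2a stood 5.19 times and Pax6 3.39 times above the other 3 retinas. Calb2 stood 1.32 times above them. Th was at 0.790, Tfap2b at 0.674, Tfap2c at 0.642, Slc18a3 at 0.493 and Chat at 0.232 of them. Counts behind these values in animal 10 were 357 for Tfap2a, 2116 for Pax6, 777 for Calb2, 210 for Tfap2b, 20 for Tfap2c, 10 for Slc18a3, 5 for Chat and 4 for Th. Pax6 and Tfap2a are also known from the lens epithelium. Some lists of other cells also summed higher in this library than in the other O2-IC100 retinas. Pigment epithelium was at 10841 against 545 to 560 CPM, Muller glia at 10394 against 3595 to 3911, horizontal cells at 873 against 408 to 422 and microglia at 503 against 119 to 148. The horizontal sum does not speak for each marker. With 12 animals, 2 of 7 were fitted higher in O2-IC100 than in O2-PBS and 5 lower. Further lists summed lower in animal 10, with cones at 123 against 1139 to 1247 CPM, ganglion cells at 278 against 1058 to 1097 and endothelium at 65.7 against 335 to 376. The part of these cells in each gene's level was not tested.

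**Figure D4:**
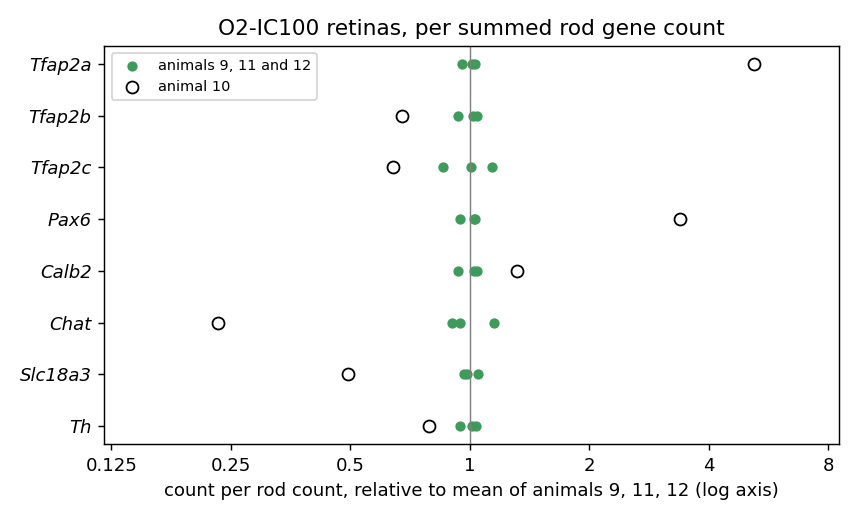
Count per summed rod gene count in the 4 O2-IC100 retinas, relative to the mean of animals 9, 11 and 12 (x axis, log scale), for each gene (y axis). Animal 10 (open circles) lies at 5.19 for Tfap2a and 3.39 for Pax6, and at 0.232 for Chat, while the other 3 animals (filled) stay near 1.

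The genes around the 8 were then read by role, in the comparison of O2-PBS with RA-PBS. In the fit of 12 animals 0 genes of any amacrine, dopamine or acetylcholine list passed, so calls here are those without animal 10. In dopamine synthesis and transport, 7 of 8 listed genes, Th included, were tested and 0 passed, with a median log2 fold change of -0.38. The nearest were Qdpr, which recycles the biopterin cofactor of Th, at -0.38 (SE 0.13, adjusted p = 0.102, edgeR) and Slc18a2, the vesicular monoamine transporter, at -0.60 (SE 0.22, adjusted p = 0.116, edgeR). Its most abundant genes after Qdpr were Pts at 36.3 ± 1.51 and 37.2 ± 4.81 CPM and Spr at 21.7 ± 5.37 and 19.0 ± 1.74 CPM in RA-PBS and O2-PBS (SD, n = 4 each), both biopterin enzymes. Among 4 tested dopamine receptors, 1 rose, 0 fell and 3 did not pass, where 6% of all genes rose by the adjusted p alone. Drd4, the receptor of photoreceptors, rose from 216 ± 35.4 to 370 ± 33.9 CPM (SD, n = 4 each) with no overlap, a log2 fold change of 0.77 (SE 0.12, adjusted p = 0.00159, edgeR). In O2-IC100 without animal 10 it was at 294 ± 26.6 CPM (SD, n = 3), which did not pass against either other group in edgeR (adjusted p = 0.219 and 0.105).

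Of 8 cholinergic and starburst genes, Chat and Slc18a3 among them, 1 fell by the adjusted p alone and 7 did not pass, with a median of -0.085. Isl1, a LIM factor of starburst, ganglion and bipolar cells, went from 110 ± 7.05 to 88.2 ± 2.88 CPM (SD, n = 4 each). Megf10, which spaces starburst cells, was at 32.4 ± 5.55 and 31.6 ± 1.51 CPM and did not pass. Of 13 acetylcholine receptors tested, 5 fell, 1 rose and 7 did not pass, with a median of -0.21, where 6.42% of all genes fell and 6% rose by the adjusted p alone. Chrna6 fell from 109 ± 29.7 to 59.1 ± 6.54 CPM, Chrnb3 from 72.0 ± 16.6 to 46.7 ± 6.12 and the muscarinic receptor Chrm2 from 16.2 ± 4.57 to 8.08 ± 0.721, all past 1.5-fold. Chrna7 and Chrnb2 fell too, with log2 fold changes of -0.49 and -0.33. Chrnb4 rose from 3.72 ± 0.831 to 7.61 ± 2.03 CPM and was lower again in O2-IC100 at 3.8 ± 0.714 (n = 3), with an adjusted p of 0.0976 against O2-PBS in edgeR. It was the 1 gene to pass between those 2 groups among 73 distinct genes tested in the amacrine, dopamine and acetylcholine lists. Over all genes 1.31% passed by the adjusted p alone, so a single call is near the share of all genes.

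For the lists that follow, 6.42% of all genes fell and 6% rose by the adjusted p alone in the fit without animal 10. Amacrine fate factors beyond the AP-2 genes gave 4 falls, 0 rises and 12 that did not pass among 16 tested, with a median of -0.24. The 4 were Neurod4 at -0.53, Prdm13 at -0.51, Ebf3 at -0.44 and Ebf1 at -0.34 on the log2 scale, each short of 1.5-fold. For GABA and glycine, the transmitters of most amacrine cells, 2 of 5 genes fell and 3 did not pass. Gad1, which makes GABA, went from 252 ± 58.3 to 183 ± 9.11 CPM and Slc6a9, the glycine transporter of glycinergic cells, from 196 ± 43.1 to 139 ± 16.5 (SD, n = 4 each), and the groups of both overlapped. Among 10 markers of other subtypes, 5 fell and 5 did not pass. Vip fell from 11.5 ± 2.90 to 5.81 ± 1.15 CPM and Cck from 7.53 ± 1.5 to 3.69 ± 0.553, both past 1.5-fold, and Gjd2, the gap junction gene of AII and other neurons, from 123 ± 11.7 to 93.9 ± 3.01. Dab1, an AII marker, and Slc17a8, the vesicular glutamate transporter of a further subtype, fell by less than 1.5-fold. Of the calcium-binding list, Calb1, Cabp5 and Hpca fell beside Calb2, and Calb1 alone of the 5 tested passed 1.5-fold, at -0.66 on the log2 scale.

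Lists of other retinal neurons were lower as well. Ganglion cell markers had 4 of 10 fall, with a median of -0.37, horizontal cell markers 3 of 7, with a median of -0.40, and bipolar markers 5 of 10, with a median of -0.33. Rod markers had 0 of 10 pass, with a median of 0.0074, and cones 1 rise and 1 fall among 9. Over all genes 6.42% fell by the adjusted p alone. Of non-neuronal lists, 6 of 9 pigment epithelium genes fell (median -1.08), with sums of 337 to 465 CPM in O2-PBS against 647 to 736 in RA-PBS, as did all 21 lens genes tested. Muller glia had 5 genes fall and 2 rise among 9, whereas 8 of 10 endothelial and 4 of 10 microglial genes rose. The part of these cells in the lower levels was not tested.

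**Figure D5:**
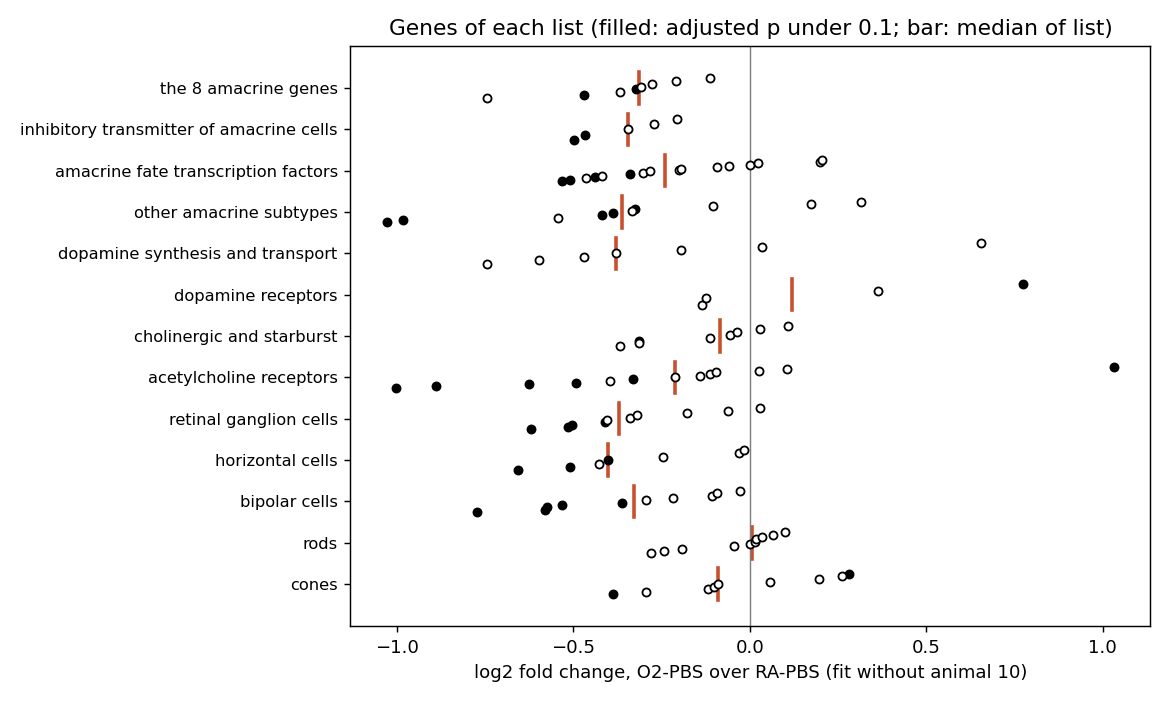
Log2 fold change of O2-PBS over RA-PBS without animal 10 (x axis) for every tested gene of each list (rows), filled where the adjusted p was under 0.1, with a bar at the median of the list. The 8 amacrine genes have a median of -0.32, close to those of the ganglion (-0.37), horizontal (-0.40) and bipolar (-0.33) lists, whereas rods lie at 0.0074.

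Between O2-IC100 and RA-PBS without animal 10, 1 rise and 7 falls by the adjusted p alone stood among the 73 distinct genes tested in the same lists, where 1.22% of all genes rose and 1.31% fell. Tac1, a tachykinin of some amacrine cells, rose from 11.7 ± 2.15 (n = 4) to 19.7 ± 1.99 CPM (SD, n = 3). Chrm2, Chrnb3, Slc6a9 and Cck fell past 1.5-fold, to 8.78, 44.8, 123 and 4.15 CPM, and Ebf3, Dab1 and Slc17a8 fell by the adjusted p alone. This comparison and that of O2-PBS rest on the same RA-PBS retinas, in which these 7 genes were at 16.2, 72.0, 196, 7.53, 40.6, 51.5 and 23.5 CPM in the order just given.

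Over the 11 retinas other than animal 10, the genes did not vary as one group. Tfap2a and Tfap2b varied together (Pearson's r = 0.949 of log2 CPM), as did Pax6 and Calb2 (r = 0.898). Chat followed Tfap2b (r = 0.818) more closely than Slc18a3 (r = 0.536), and Calb2 and Slc18a3 were nearly unrelated (r = 0.0789). Among 15012 genes, the one most like Calb2 was Scgn, which encodes the calcium-binding secretagogin (r = 0.984, Spearman's rho = 0.973, r = 0.965 without the 2 farthest animals). Most like Pax6 was Ogfrl1 (r = 0.984), most like Tfap2a was Dlgap1 (r = 0.971) and most like Tfap2b was Ptpro (r = 0.975). Chat was closest to Shc2 (r = 0.960), Slc18a3 to Tox2 (r = 0.931) and Tfap2c to Pkib (r = 0.844). The points share their 3 groups and their normalization, so these values only describe the 11 libraries.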

How the data were processed

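The authors pseudoaligned 150 bp paired-end reads of polyA-selected RNA with Kallisto to the mouse transcriptome of GRCm39 release 104 and summed transcripts per gene with tximport, per the paper, and the submitters' notes also name DESeq2. Versions are not given in the sources used here. The deposited values are expected counts per gene, not scaled to depth, and 42.2% of them are not whole. Symbols were taken from a table of GENCODE identifiers, which named 35374 of 36131 genes. Exon lengths and promoters came from GRCm38 references, so the positions printed are of that build only.

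Groups were taken from the labels. Counts were rounded and fitted with edgeR 4.0.16 in R 4.3.3 (TMM, filterByExpr, robust quasi-likelihood F test, 3 groups in 1 fit, two-sided, Benjamini-Hochberg over all genes tested). The thresholds were a fold change of at least 1.5, p under 0.05 and adjusted p under 0.1, with the adjusted p alone as a second rule. SE is the log2 fold change divided by the square root of F, and 95% intervals are 1.96 SE to either side. CPM are given on the TMM scale of 12 animals. Ratios used log2 of counts plus 0.5 with exact permutation tests (scipy 1.17.1). Likeness was taken over genes with a mean of at least 1 CPM. The likeness result for Th is not reported here. Genes of the amacrine, dopamine and acetylcholine lists are named where they passed a rule in either fit or, where none did, as the top 3 by level. Slc18a2, Megf10, Tfap2d and Tfap2e were named after their values were seen. Markers of other cells are given by counts. Alternatives were other tools, scalings, filters and covariates, fits of 2 groups and left-out animals. Those without animals 3 and 10 together, and DESeq2 without animal 10, were not planned. The fit was tested on simulated data. The genes and lists were chosen with earlier results of these data known. A count of 0 would allow a share of up to 1.23e-05 to 2.01e-05% (3 counts), which covers counting error only. Protein sequences and the promoters of Tfap2c and Calb2 were not analysed here.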

Additional observations from a re-analysis of the deposited data

Results flagged for a closer look

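Checks for an animal far from its group, at 4 animals each, covered 33 groups of values, of which chance marks about 1 in 20. In O2-IC100, animal 10 was the lowest and stood apart for Tfap2b (26.5 CPM, a gap of 0.924 of the group's range), Calb2 (98.1 CPM, 0.913), Th (0.505 CPM, 0.836) and Slc18a3 (1.26 CPM, 0.832). This is the library with 59.0% crystallin counts and rod genes at 0.332%. In RA-PBS, animal 1 was the highest for Th at 5.95 CPM, with a gap of 0.877 of the range to 2.99 CPM in animal 2. Its crystallin share was 0.00315%, the lowest of its group, and its Chat level was the highest of the 12 retinas at 17.9 CPM.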

How the results depend on the processing

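No paired analysis was possible because the labels number the animals 1 to 12 and the groups share no number. Of the 8 genes called between O2-PBS and RA-PBS (0 in 12 animals), the crystallin covariate gave 4 and leaving out animals 3 and 10 together gave 1, and between O2-IC100 and RA-PBS the crystallin covariate gave 6. Calls over all genes rose in the same settings. Between O2-PBS and RA-PBS they were 2702 with the crystallin covariate and 1343 without animals 3 and 10, against 133 in the main fit. Those between O2-IC100 and RA-PBS are in the next paragraph. The cause was not tested. The crystallin covariate was the log2 of summed crystallin CPM plus 1, and was highest in animal 10 (59.0% of counts). RA-PBS animals 2, 3 and 4 (1.25 to 4.50%) also stood above every O2-PBS retina (at most 0.0158%). The covariate thus differed between the groups compared and cannot be fully told apart from them. With 12 animals DESeq2 called 0 of the 8 and gave Pax6 an adjusted p of 0.000143 in O2-PBS against RA-PBS.

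All genes called between O2-PBS and RA-PBS (133) were 407 with DESeq2, 867 with only both groups fitted, 968 without animals 1 and 10, 1343 without 3 and 10, 876 with the Y-linked covariate and animal 10 left out (1046 without the covariate), 2702 with the crystallin covariate and 1167 with DESeq2 without animal 10. Leaving out 1 animal gave 32 to 1046, with 1046 for animal 10 and 32 to 80 for each of animals 1 to 8. Between O2-IC100 and O2-PBS (0) they were 112, 282 (without 1 and 10), 274 (without 3 and 10), 39 (Y-linked covariate without animal 10, which alone gave 158) and 394 (DESeq2 without 10), and 0 to 158 leaving out 1 animal, with 158 for animal 10. Between O2-IC100 and RA-PBS (0) they were 279, 2 without a filter on low counts, 315, 299, 419 (Y-linked covariate without animal 10, which alone gave 261), 3636 (crystallin) and 561, and 0 to 261 leaving out 1 animal, with 261 for animal 10 and 3 for animal 3.

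Differences that changed sign were small and lay mostly between O2-IC100 and O2-PBS. Without animal 10 they were 0.065 for Tfap2c, 0.091 for Slc18a3 and 0.21 for Th, and leaving out 1 animal at a time gave -0.49 to 0.065, -0.46 to 0.091 and -0.24 to 0.21, with -0.044 to 0.35 for Calb2. Without 1 and 10 they were 0.064, 0.091 and 0.22, without 3 and 10 they were 0.054, 0.081 and 0.20 with Tfap2a at -0.0027, and with DESeq2 without animal 10 they were 0.047, 0.076 and 0.20 with Tfap2a at -0.0084. Tfap2a was at -0.20 with the Y-linked covariate and animal 10 left out (0.0078 without the covariate) and Th at 0.20 with the crystallin covariate. Calb2 was below 0 without animal 9, 11 or 12. Between O2-IC100 and RA-PBS the log2 ratio of Th to Tfap2b was -0.17 to 0.13 leaving out 1 animal, above 0 without animal 1 or 9, and 0.034 without 1 and 10, and Th to Chat was -0.088 without 3 and 10. Of the values for single genes, 498 kept direction and side of the threshold, 19 changed sign and 11 newly passed. Th had 33 to 106 counts per retina outside animal 10, and its log2 fold changes without that animal carry an SE of 0.27 to 0.30.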
